A study of Mus musculus with 3 samples.

Results

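Dermal fibroblasts were examined in mouse dorsal skin that had been digested and enriched for immune cells with CD45+ magnetic beads, so the fibroblasts were cells carried over by the enrichment and their share was not a share of the skin. The cells were chosen by their own UMIs (unique molecular identifiers, each 1 captured RNA molecule), when at least 4 of 7 rule genes (Col1a1, Col1a2, Col3a1, Dcn, Lum, Pdgfra and Dpt) had a UMI, when Col1a1, Col1a2, Col3a1 and Dcn together reached 10 UMIs, when Ptprc and Tyrobp of immune cells together held at most 1 UMI, and when Krt14 and Krt5 of keratinocytes held fewer than 5. This found 411 cells of 16604 that passed the cell filters. Of these, 203 of 5309 came from non-irradiated wild-type skin (WT_Ctrl, 3.82%, 95% Wilson interval 3.34 to 4.37%), 5 of 5225 from wild-type skin after 3 UVB exposures given every other day (WT_UV, 0.0957%, 0.0409 to 0.224%), and 203 of 6070 from skin of RP mice after the same 3 exposures (RP_UV, 3.34%, 2.92 to 3.83%). All mice were 8-week-old C57Bl/6 males in telogen, the resting phase of the hair cycle. RP mice carry Rosa26-rtTA; Tre-Ptgs2, which expresses rat Ptgs2, the gene of the prostaglandin-making enzyme Cox-2, in all tissues when doxycycline is given; the drug was started the day before UVB. Whether the wild-type mice of these libraries received doxycycline was not given in the sources used here.

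Fibroblasts make the collagen fibres of the dermis, chiefly types I and III, and the proteoglycans, such as decorin, that space them. They also secrete the enzymes and inhibitors that turn this matrix over, and they answer injury with matricellular proteins, acute-phase proteins and chemokines. Prostaglandin E made through Cox-2 acts on receptors at the cell surface, several of which raise or lower cyclic AMP. The comparison asked how fibroblasts of irradiated, Cox-2 overexpressing skin differed from those of resting wild-type skin. RP_UV and WT_Ctrl shared a flow cell by their labels and differed in UVB and in genotype, which cannot be told apart here. WT_UV was run on another flow cell and, with 5 fibroblasts, gave levels only.

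Each group was 1 library, so there was no replicate, no test and no p-value, and every interval covers counting error only. Fibroblasts held 1245944 UMIs in WT_Ctrl, 54314 in WT_UV and 1089600 in RP_UV, with medians of 5775, 12470 and 5192 UMIs and 2126, 3763 and 2039 genes per cell. Levels are UMIs of a gene per 1000000 UMIs of all genes, summed over fibroblasts of a library (CPM), and a gene without a UMI could have stood at up to 2.41 CPM in WT_Ctrl, 55.2 in WT_UV and 2.75 in RP_UV (3 counts). Between 8 and 11 cell barcodes were shared by any pair of libraries, and 0 of them belonged to a fibroblast. The mitochondrial share of fibroblasts had medians of 2.54%, 8.79% and 2.23% in the same order.

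The rule values of the cells describe how they were chosen and support nothing further. With at least 4 rule genes and 10 UMIs there were 222, 24 and 220 cells in WT_Ctrl, WT_UV and RP_UV, and the limit on immune markers removed 19, 19 and 14 of them. The keratinocyte limit then removed 3 more in RP_UV. A UMI of Krt14 or Krt5 remained in 19, 0 and 69 fibroblasts, and 1 UMI of Ptprc or Tyrobp in 8, 2 and 30. All 7 rule genes were seen in 105 fibroblasts of WT_Ctrl, 0 of WT_UV and 83 of RP_UV. Just inside the limit of 10 UMIs lay 4, 0 and 9 fibroblasts with up to 12 UMIs, and just outside it 6, 2 and 7 cells with 7 to 9.

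The label was checked against markers. The 5 markers Col1a1, Col3a1, Dcn, Lum and Pdgfra were all present and summed to 76498 CPM in fibroblasts of WT_Ctrl, 9040 in WT_UV and 27282 in RP_UV, against 246, 28.0 and 182 CPM in the other cells of the same libraries. Macrophage markers, 6 genes in all, stood at 178, 129 and 246 CPM in fibroblasts and at 21277, 19789 and 12503 in the other cells. T cell and NK cell markers reached at most 11.2 CPM in fibroblasts. Neutrophil markers (6 genes) stood at 221, 0 and 166 CPM in fibroblasts and at 102, 242 and 2007 in the other cells, with S100a8 and S100a9 at 0 in fibroblasts of WT_Ctrl. Keratinocyte markers outside the rule (9 genes) stood at 243, 368 and 341 CPM in fibroblasts and at 9829, 3817 and 9339 in the other cells. Pericyte, endothelial and Schwann markers were not low in every fibroblast. Pericyte and smooth muscle markers (7 genes, Rgs5 and Myh11 among them) summed to 184 CPM in WT_Ctrl, 1675 in WT_UV and 587 in RP_UV, and endothelial markers (6 genes) to 24.9, 73.6 and 134. With Acta2 added to the pericyte list for this step, cells with at least 5 pericyte UMIs numbered 8, 1 and 21. Those with at least 3 endothelial UMIs numbered 3, 0 and 9, and those with at least 3 Schwann UMIs 4, 1 and 16. Without these cells, 189, 3 and 166 fibroblasts were left, in which the pericyte list of 7 genes stood at 44.7 CPM in WT_Ctrl and 57.4 in RP_UV. Values without these cells come from an alternative chosen after the data were seen. Among the genes counted in the lists below, those that then fell inside the 2-fold limit were Col11a1, Ltbp1, Dkk3, Tcf4, Osr2 and Entpd2 on the lower side (log2 ratios from -0.99 to -0.84) and Serpine2 (0.75), Klf2 (0.77), Hspb1 (0.67), Cd36 (0.42), Pdgfa (-0.06) and the contractile genes Myl9 (0.71), Actn1 (0.94) and Cald1 (0.98) on the higher side. Their part in the results was otherwise not tested.

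Ptgs2, the gene targeted in RP mice, was read in fibroblasts at 1.61 CPM in WT_Ctrl (2 UMIs in 2 cells), at 0 in WT_UV and at 150 CPM in RP_UV (163 UMIs in 66 cells), a ratio of 93.2 (25.4 to 776) between RP_UV and WT_Ctrl. The other cells of these libraries, pooled over all types, stood at 15, 118 and 499 CPM, above the fibroblasts in every library. This did not hold for each class. In RP_UV, keratinocytes (578 CPM) and immune cells (543) stood above fibroblasts. Endothelial cells (27.7 CPM) and pericyte or smooth muscle cells (22.7) stood below them, and both classes had 0 UMIs in WT_Ctrl. After thinning of each cell to 2000 UMIs, 14.9% of RP_UV fibroblasts had a Ptgs2 UMI against 26.1% of immune cells (32.5% and 42.9% unthinned). These shares alone cannot tell free RNA in the droplets from expression, and this was not tested. The transgene is a rat sequence and how its reads map to the mouse gene was not tested.

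Most genes were within 2-fold in fibroblasts of both libraries. Of 5908 genes with a mean of at least 20 CPM, 297 (5.03%) were at least 2-fold higher in RP_UV and 128 (2.17%) at least 2-fold lower, on the scale log2((RP_UV CPM + 10)/(WT_Ctrl CPM + 10)), which understates differences of low genes. Without the cells that carried markers of other types, 276 of 5771 genes (4.78%) were higher and 121 (2.1%) lower, and 225 and 105 of the calls were shared. The median over all genes was 0.18 on the log2 scale, and the rule genes and Sparc took 14.9% of fibroblast UMIs in WT_Ctrl and 4.43% in RP_UV, which leaves more of the fixed total to other genes. Scaling by median of ratios moved that median to -0.02 and turned the split to 182 higher and 216 lower. Gene lists are therefore read beside 0.18, and counts of their members beside 5.03% higher and 2.17% lower.

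Among the most abundant transcripts, those of collagen I and its companions were lower in RP_UV. Col1a2 stood at 38287 CPM in WT_Ctrl, 865 in WT_UV and 7235 in RP_UV, and Col1a1 at 34199, 1178 and 6578. Col3a1 stood at 22573, 2375 and 9420 CPM, and Dcn, decorin, at 17201, 5413 and 9570. These 4 genes are part of the rule, so their ratios of 5.29, 5.2, 2.40 and 1.80 between WT_Ctrl and RP_UV are a description. Sparc, a collagen-binding protein that the rule did not use, went the same way, with 33515 CPM in WT_Ctrl, 3553 in WT_UV and 9082 in RP_UV, 3.69-fold (3.61 to 3.77) lower in RP_UV than in WT_Ctrl. It was seen in 201 of 203 and 202 of 203 fibroblasts of these libraries.

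**Figure D1:**
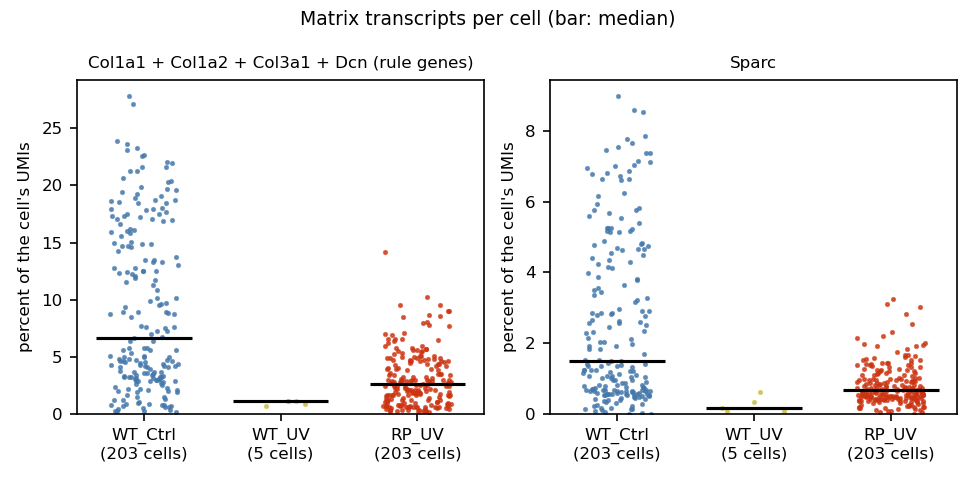
Percent of the UMIs of each fibroblast (1 point per cell) that came from Col1a1, Col1a2, Col3a1 and Dcn together (left) and from Sparc (right), by library, with the median as a bar. WT_Ctrl spreads upward to 27.9% and 8.99%, whereas RP_UV lies mostly under its WT_Ctrl counterpart, with medians of 2.58% against 6.64% and 0.666% against 1.48%.

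The amount per cell was uneven in resting skin. The 4 collagen and decorin transcripts took a median of 6.64% of the UMIs of a WT_Ctrl fibroblast (quartiles 3.19 and 15.3%), 1.07% in WT_UV and 2.58% in RP_UV (1.19 and 4.62%). They took 10% or more in 81 fibroblasts of WT_Ctrl and in 2 of RP_UV. As rule genes chose the cells, these shares are a description. A total of 19 WT_Ctrl and 8 RP_UV fibroblasts lay between 8 and 12%, so the limit marks a range and not a cell type.

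The fibroblasts of WT_Ctrl at or above 10% were set beside those under it, as a split chosen after the data were seen and made with rule genes. Those 81 cells had a median of 8086 UMIs and the other 122 a median of 4420.5. Besides collagen I, the cells at or above 10% held more Cpz, a carboxypeptidase that binds Wnt proteins (703 against 47.9 CPM), more Cldn10, a claudin (652 against 82.1), more Ndufa4l2, a mitochondrial subunit raised by hypoxia (1199 against 197), and more C1qtnf3 (370 against 49.6). Sparc stood at 53231 against 11199 CPM. The cells under 10% instead held Coch, cochlin (1010 against 3.02 CPM), the Wnt inhibitor gene Sfrp4 (527 against 0) and Mgp, matrix Gla protein (578 against 3.02), and also Acta2, which marks contractile cells.

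With the comparison limited to fibroblasts under 10% (122 of WT_Ctrl and 201 of RP_UV), 175 of 6209 genes were at least 2-fold higher in RP_UV (2.82%) and 190 at least 2-fold lower (3.06%), and 140 and 63 of these calls were shared with those over all fibroblasts. The median over all genes was then -0.01. Col1a1 came to 7915 CPM in WT_Ctrl and 6468 in RP_UV, Col1a2 to 8663 and 7138, and Sparc to 11199 and 9070, all within 2-fold. That Col1a1 and Col1a2 were close is fixed by the limit, which used them, and supports nothing. Cpz (47.9 and 52.6 CPM), Cldn10 (82.1 and 64.5), Ndufa4l2 (197 and 139) and C1qtnf3 (49.6 and 36.9) no longer differed by 2-fold. These genes were named above as high in the cells left out, so this too follows from the split and supports nothing. The 12 genes most raised in RP_UV, described next, all kept a 2-fold difference in this range.

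**Figure D2:**
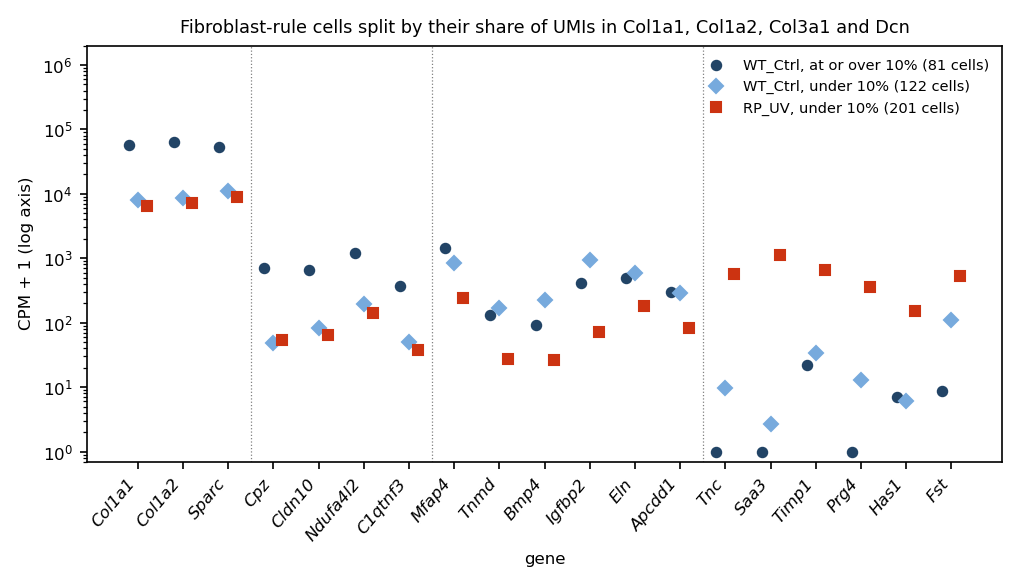
CPM + 1 on a log axis, summed over WT_Ctrl fibroblasts at or over 10% of UMIs in Col1a1, Col1a2, Col3a1 and Dcn (81 cells), WT_Ctrl fibroblasts under 10% (122) and RP_UV fibroblasts under 10% (201), for 19 genes in 4 blocks. Col1a1, Col1a2 and Sparc and the next 4 genes are high only in the first set of cells, Mfap4 to Apcdd1 are low only in RP_UV, and Tnc to Fst are high only in RP_UV.

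The genes most raised in RP_UV fibroblasts were acute-phase and matricellular genes. Saa3 (ENSMUSG00000040026), an acute-phase serum amyloid protein, stood at 0.803 CPM in WT_Ctrl (1 UMI), at 0 in WT_UV and at 1117 CPM (1055 to 1181) in RP_UV, a ratio of 1392 with a counting interval from 249 to 55011. Tnc, tenascin C, a matrix protein of wounds, stood at 4.01, 18.4 and 557 CPM, 139-fold (59.2 to 429) higher in RP_UV than in WT_Ctrl. Timp1, an inhibitor of matrix metalloproteinases, stood at 26.5, 0 and 664 CPM, 25.1-fold (17.7 to 36.7) higher. In all 3 genes the intervals of WT_Ctrl and RP_UV lay apart, but the genes were picked by this ratio, so that supports nothing further. Tnc and Timp1 were spread over 53 and 91 of the 203 fibroblasts, whereas Saa3 was seen in 27 and 379 of its 1217 UMIs were in 1 cell. Saa3 has close relatives in the serum amyloid family whose reads the counting could split.

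The promoters of these genes and of Col1a2 are shown because the first 3 carry the higher side of the comparison and the last the lower side. They are the 250 bases before the start of each gene in RefSeq on GRCm38.p6 (mm10), 5′ to 3′ on the strand of the gene: Saa3 at chr7:46715677-46715926 (minus strand), Timp1 at chrX:20869916-20870165 (plus strand), Tnc at chr4:64047016-64047265 (minus strand, 1 of 2 starts listed) and Col1a2 at chr6:4505368-4505617 (plus strand). Capitals mark matches, on either strand, to any of 5 searched motifs.
Saa3: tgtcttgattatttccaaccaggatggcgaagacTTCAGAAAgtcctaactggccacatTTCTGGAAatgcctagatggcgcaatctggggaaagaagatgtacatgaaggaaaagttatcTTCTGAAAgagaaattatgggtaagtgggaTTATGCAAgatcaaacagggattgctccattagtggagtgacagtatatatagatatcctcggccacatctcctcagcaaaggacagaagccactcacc
Timp1: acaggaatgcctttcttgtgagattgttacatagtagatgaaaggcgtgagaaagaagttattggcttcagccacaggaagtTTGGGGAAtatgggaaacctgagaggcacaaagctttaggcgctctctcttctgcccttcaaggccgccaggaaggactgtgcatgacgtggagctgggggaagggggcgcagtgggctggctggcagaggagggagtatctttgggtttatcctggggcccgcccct
Tnc: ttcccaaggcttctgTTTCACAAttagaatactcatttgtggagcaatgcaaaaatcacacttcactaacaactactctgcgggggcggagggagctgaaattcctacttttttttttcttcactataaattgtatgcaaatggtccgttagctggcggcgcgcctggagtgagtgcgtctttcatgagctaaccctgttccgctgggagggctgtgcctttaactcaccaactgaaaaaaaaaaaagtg
Col1a2: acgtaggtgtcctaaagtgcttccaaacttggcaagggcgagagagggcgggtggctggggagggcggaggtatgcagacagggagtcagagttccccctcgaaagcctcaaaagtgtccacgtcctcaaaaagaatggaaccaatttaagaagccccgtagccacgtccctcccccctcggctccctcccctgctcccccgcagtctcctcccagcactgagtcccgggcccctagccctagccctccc
The motifs were the 10-letter NF-kB motif, C/EBP as TTNNGNAA, AP-1 as TGANTCA, CRE as TGACGTCA and STAT as TTCNNNGAA, held by 1.41%, 36.9%, 6.75%, 1.55% and 7.02% of 32841 promoters of this length. Every match in the 4 promoters was to C/EBP letters, 4 in Saa3, 1 in Timp1, 1 in Tnc and 0 in Col1a2. Those letters occurred in 34.1% of the 217 promoters found for genes higher in RP_UV and in 31.6% of 95 found for lower genes, so a match to them is common in any promoter. The other motifs occurred in 3.23% (NF-kB), 6.45% (AP-1), 3.69% (CRE) and 5.07% (STAT) of the promoters of higher genes, which for NF-kB was 7 promoters and for CRE 8, and in 1.05%, 3.16%, 2.11% and 6.32% of those of lower genes.

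Other genes among the 12 with the highest ratio gave matrix and signalling products. Prg4, lubricin, stood at 5.62 CPM in WT_Ctrl, 0 in WT_UV and 369 in RP_UV (65.7-fold, 31.6 to 164), and Has1, a hyaluronan synthase, at 5.62, 0 and 153 (27.3-fold, 13.0 to 68.9). Fst, follistatin, a binding protein of activins, stood at 54.6, 0 and 525 CPM (9.62-fold, 7.47 to 12.6). These transcripts were each found in 55 to 83 fibroblasts of RP_UV, against 53 for Tnc. Ctla2a, a cathepsin inhibitor with near-identical relatives and therefore uncertain, stood at 176, 0 and 1819 CPM. Within WT_Ctrl it stood at 320 CPM in fibroblasts at or above 10% and at 12 under it, and it was also high in endothelial cells (767 CPM in WT_Ctrl and 2266 in RP_UV). Il33, an alarmin cytokine, stood at 8.83 CPM in WT_Ctrl, 313 in WT_UV and 120 in RP_UV, and Spp1, osteopontin, at 8.83, 129 and 151, with the WT_UV UMIs in 3 and 2 of its 5 cells. Fibin stood at 31.3, 0 and 272 CPM. For Fst the limit to cells under 10% left 108 CPM in WT_Ctrl and 527 in RP_UV, and for Fibin 65.0 and 272.

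A further pair rested on very few cells. Hp, haptoglobin, an acute-phase binder of haemoglobin, had 0 UMIs in WT_Ctrl and WT_UV and 396 CPM in RP_UV. The counting interval of its ratio to WT_Ctrl started at 133, but its 431 UMIs were in 11 fibroblasts and 236 of them in 1. With the cell holding most UMIs of the gene left out, the log2 ratio of Hp was 4.24 in place of 5.34 and that of Saa3 6.28 in place of 6.70. Mup17, a major urinary protein with near-identical relatives, had 129 UMIs in RP_UV, all in 1 fibroblast. That cell also held Saa3 and Hp, and 8 of the 11 cells with Hp had Saa3. After thinning, 11% of RP_UV fibroblasts had a Saa3 UMI and 4.42% an Hp UMI, against 10.4% and 5.63% of immune cells. These 2 shares were close to those of immune cells, although the level of Saa3 was 1117 CPM in fibroblasts and 112 in the other cells and that of Hp 396 and 158. Tnc was seen in 22.7% against 0.378%, Prg4 in 22.7% against 0.0756%, Has1 in 19.3% against 0.0378% and Timp1 in 32.6% against 6.61%. The corresponding shares of WT_Ctrl fibroblasts were 0.521% for Tnc, 0% for Prg4, 1.04% for Has1 and 3.12% for Timp1 (0.985, 2.96, 3.45 and 12.8% unthinned). Another 4 genes with ratios in this range, Ptgs2, Fabp4, Fabp5 and Lrg1, were left out of the 12 because other cells of RP_UV held more of them than fibroblasts did.

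**Figure D3:**
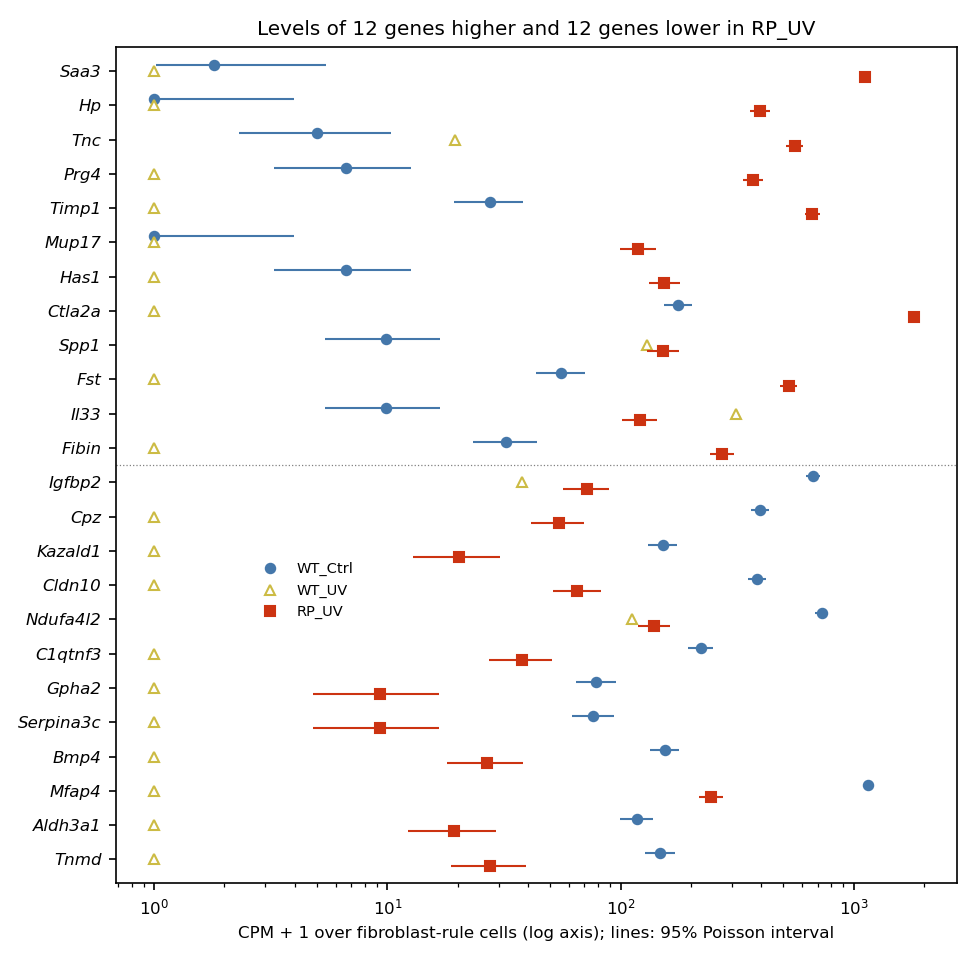
CPM + 1 on a log axis for the 12 genes with the highest and the 12 with the lowest ratio of RP_UV to WT_Ctrl, summed over fibroblasts of each library, with exact 95% Poisson intervals for WT_Ctrl and RP_UV. Open triangles are the 5 WT_UV fibroblasts and sit at 1 where the gene had no UMI. The 2 intervals are apart for every gene, from Saa3 (0.803 and 1117 CPM) to Tnmd (147 and 26.6 CPM). The genes were picked by this ratio, so that supports nothing further, and the intervals do not cover spread between cells.

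The 12 genes with the lowest ratio came from several families. Igfbp2, which binds insulin-like growth factors, stood at 670 CPM in WT_Ctrl, 36.8 in WT_UV and 70.7 in RP_UV, 9.48-fold (7.50 to 12.1) lower in RP_UV, with its UMIs in 32 and 18 fibroblasts of WT_Ctrl and RP_UV. Bmp4, a bone morphogenetic protein, stood at 154, 0 and 25.7 CPM (6.00-fold lower, 4.02 to 9.26). Mfap4, a microfibril-associated protein, stood at 1154, 0 and 244 CPM (4.73-fold lower, 4.15 to 5.41). All 3 were also more than 2-fold lower among fibroblasts under 10%, as was Tnmd, tenomodulin, at 166 against 26.7 CPM (147 and 26.6 over all fibroblasts). Kazald1 (151 and 19.3 CPM) and Aldh3a1, an aldehyde dehydrogenase (116 and 18.4), kept a 2-fold difference there by a narrow margin, at log2 ratios of -1.06 and -1.03. Cpz (396 and 53.2 CPM), Cldn10 (384 and 64.2), Ndufa4l2 (729 and 139) and C1qtnf3 (220 and 36.7) did not. Gpha2 and Serpina3c, the latter of a gene family with near-identical members, fell from 77.9 and 75.4 to 8.26 CPM each and were too low under 10% to be read.

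The structural matrix outside the rule did not move as a block. Of 17 other collagen chains that passed the filter, 1 was at least 2-fold higher and 2 were lower, with a median log2 ratio of -0.21 that ran from -0.44 to 0.01 over the alternatives. Col12a1, a fibril-associated chain, was 6.27-fold (4.20 to 9.66) higher, at 23.3 CPM in WT_Ctrl and 146 in RP_UV. Col15a1, a chain beside basement membranes, was 2.96-fold (2.5 to 3.53) lower, at 470 and 159 CPM, and Col11a1 stood at 31.3 and 10.1. Of 16 genes that process and crosslink collagen, only Pcolce2, which enhances procollagen cleavage, was 2-fold apart, at 898 and 297 CPM, and it was within 2-fold among cells under 10%. Serpinh1, the collagen chaperone, stood at 1693 and 1666 CPM over all fibroblasts and at 1045 and 1667 among those under 10%.

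Elastic fibre genes were apart on the lower side where they differed. Of 15, 5 were at least 2-fold lower (Eln, Mfap4, Ltbp1, Ltbp2 and Ltbp4) and 0 higher, beside 2.17% lower over all genes. Eln, elastin, stood at 540 CPM in WT_Ctrl, 0 in WT_UV and 186 in RP_UV, 2.90-fold (2.47 to 3.41) lower. The latent TGF-beta binding proteins Ltbp1 and Ltbp4 stood at 213 and 173 CPM in WT_Ctrl and at 95.4 and 69.7 in RP_UV. The list median of -0.12 changed sign under 3 alternatives. Eln, Mfap4 and Ltbp4 were also 2-fold lower among cells under 10%.

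Proteoglycans and glycoproteins split in direction. Of 13 proteoglycan and hyaluronan genes, Has1 and Prg4 were 2-fold higher and Fmod and Aspn, small leucine-rich proteoglycans, 2-fold lower, with a median of -0.39. Among cells under 10% there were 2 higher and 5 lower. Aspn, asporin, stood at 960 CPM in WT_Ctrl and 385 in RP_UV. Of 14 other matrix glycoproteins, Tnc, Thbs1 and Cthrc1 were higher and Fn1 and Sparc lower, with a median of 0.09. Thbs1, thrombospondin, had 62.6 CPM in resting and 286 CPM in RP_UV fibroblasts, and Fn1, fibronectin, 736 and 335. Both kept a 2-fold difference among cells under 10%.

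Enzymes that cut matrix, and their inhibitors, were on the higher side where they differed. Of 12 proteases, 4 were at least 2-fold higher (Mmp11, Mmp19, Adamts1 and Adamts4) and 0 lower, beside 5.03% higher over all genes. Adamts1, which cleaves aggrecan-type proteoglycans, stood at 132 CPM in WT_Ctrl, 184 in WT_UV and 416 in RP_UV. The more abundant Mmp2, a gelatinase, stood at 842 and 869 CPM, and Mmp3, stromelysin, at 552 and 566, ratios whose intervals include 1. Of 9 inhibitors, 4 were higher, Timp1, Serpine2 and Serpina3n among them, and 0 lower. Serpina3n, of a family with near-identical members, stood at 223 and 649 CPM, and Timp2 at 2362 and 1296. Among cells under 10%, Mmp3 (245 and 566 CPM) and Adamts4 were the proteases at least 2-fold higher in RP_UV, and Serpine2 (135 and 166) was within 2-fold. The protease median of 0.04 changed sign under 4 alternatives.

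**Figure D4:**
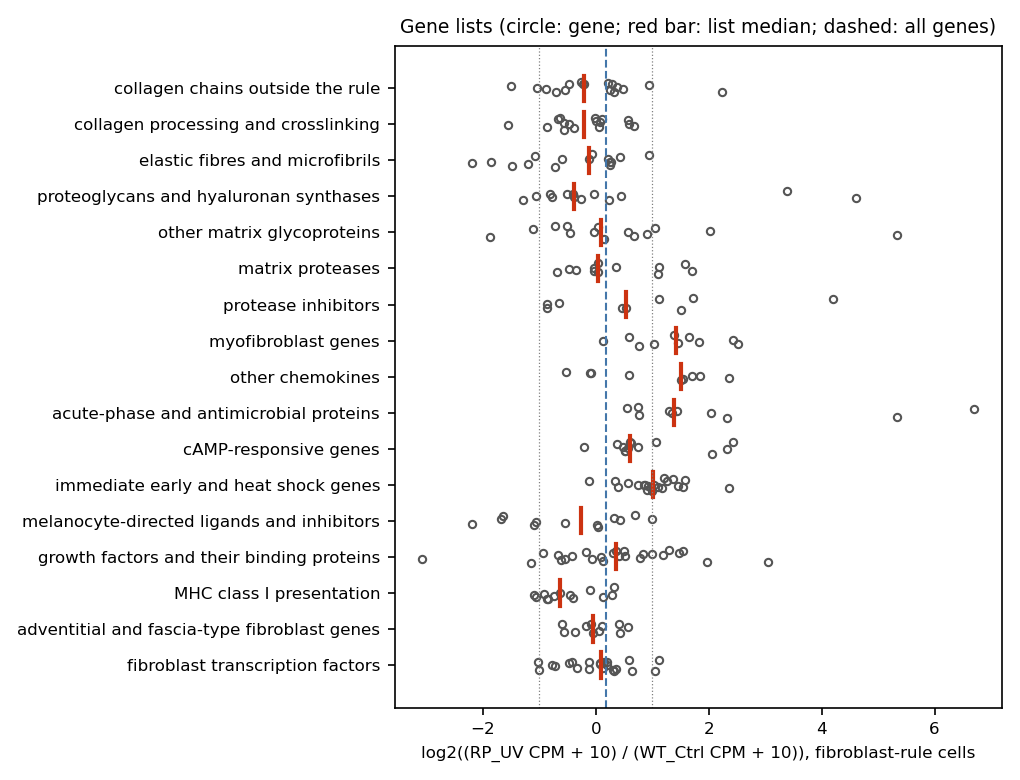
Log2((RP_UV CPM + 10)/(WT_Ctrl CPM + 10)) over fibroblasts for genes of 17 lists (1 circle per gene that passed the filter), with the list median as a red bar, the median over all 5908 genes (0.18) as a dashed line and 2-fold limits dotted. Acute-phase (1.38), other chemokine (1.5), myofibroblast (1.41) and immediate early (1.01) lists have medians above 1, and MHC class I the lowest median shown, -0.64.

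Acute-phase and metal-binding genes were higher as a list. Of 10 that passed, 7 were at least 2-fold higher (Saa3, Hp, Ptx3, Cp, Mt1, Mt2 and Apod) and 0 lower, beside 5.03% higher over all genes, and the median of 1.38 ran from 1.16 to 1.64 over the alternatives. Mt2, a metallothionein, stood at 54.6 CPM in WT_Ctrl, 55.2 in WT_UV and 315 in RP_UV, 5.77-fold (4.44 to 7.60) higher than in WT_Ctrl. Apod, apolipoprotein D, stood at 1169, 1399 and 3164 CPM, and Cp, ceruloplasmin, at 69.0, 184 and 190. Saa3 and Hp were nearly absent at rest, whereas Apod and Mt1 were abundant in all 3 libraries. Ptx3, a pentraxin that binds microbes, stood at 2.41, 0 and 41.3 CPM, in 14 fibroblasts of RP_UV. Among cells under 10%, Apod had 1679 CPM in WT_Ctrl and 3177 in RP_UV, within 2-fold, and 6 of 10 genes of the list stayed higher.

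Immediate early genes, which are also raised by tissue digestion, were higher in RP_UV in 10 of 20 genes and lower in 0. Over all genes 5.03% were higher, and the list median was 1.01. Atf3 stood at 25.7 CPM in WT_Ctrl, 184 in WT_UV and 173 in RP_UV, and Fos at 512, 1565 and 1503. In the other cells Fos stood at 1291 CPM in WT_Ctrl and 1103 in RP_UV, and Atf3 at 644 and 333. Among fibroblasts under 10% the count was 3 of 20, beside 2.82% over all genes, and the median 0.47.

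Chemokines were higher by ratio, and those that draw monocytes were less abundant in fibroblasts than in the other cells. Of 9 chemokines outside the neutrophil group, Ccl2, Ccl7, Cxcl10, Cxcl12 and Cxcl14 were at least 2-fold higher and 0 lower. Over all genes 5.03% were higher. The list median of 1.5 ran from 0.54 to 1.56 over the alternatives. Ccl2 stood at 26.5 CPM in WT_Ctrl, 36.8 in WT_UV and 177 in RP_UV, and Ccl7 at 34.5, 18.4 and 135. After thinning, 13.8% and 14.9% of RP_UV fibroblasts had a UMI of them, under the 41.8% and 39.4% of immune cells. In RP_UV, Ccl2 stood at 10.5 CPM in keratinocytes, 14.3 in endothelial cells and 51.0 in pericyte or smooth muscle cells. Ccl7 stood at 5.94, 5.12 and 28.4 CPM in the same order. How much of the fibroblast levels was free RNA was not tested. Cxcl12, which binds Cxcr4 on leukocytes, stood at 140 and 417 CPM in fibroblasts and at 41.4 and 64.0 in the other cells, with a UMI in 28.7% of thinned RP_UV fibroblasts against 1.47% of immune cells. Cxcl14, a constitutive skin chemokine, stood at 44.1 and 185 CPM, in 14.9% against 0.265%.

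Of the 5 chemokines that attract neutrophils, Cxcl1 and Cxcl2 passed the filter. Cxcl1 stood at 29.7 CPM in WT_Ctrl, 18.4 in WT_UV and 142 in RP_UV, 4.79-fold (3.33 to 7.06) higher. It had a UMI in 12.2% of thinned RP_UV fibroblasts against 8.09% of immune cells. Pericyte or smooth muscle cells held more of it, at 534 CPM in WT_Ctrl and 423 in RP_UV. Immune, endothelial and keratinocyte cells of RP_UV held less, at 96.7, 72.8 and 16.7 CPM. Cxcl2 stood at 39.5 CPM in fibroblasts of RP_UV and at 1919 in the other cells, so it cannot be told apart from free RNA. Cytokine genes were scarce: 3 of 15 passed the filter and Il33 alone was 2-fold apart. Il6 stood at 3.21, 0 and 36.7 CPM, and Il1b and Tnf at no more than 2.75 CPM in WT_Ctrl or RP_UV.

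Receptors and feedback genes of cytokine signalling stood slightly above the median of all genes. Of 17 receptors and mediators, Il1r1, Tnfrsf12a and Socs3 were at least 2-fold higher and 0 lower, with a median of 0.68. Tnfrsf12a, the receptor of the ligand TWEAK, stood at 22.5, 18.4 and 164 CPM, a ratio of 7.31 (4.89 to 11.3). Of 12 NF-kB feedback genes, Nfkbia, Nfkbiz and Tnfaip6 were higher and 0 lower. Tnfaip6, which crosslinks hyaluronan chains, stood at 77, 0 and 303 CPM, with 6.95 CPM in the other cells of RP_UV. Among cells under 10%, Tnfrsf12a and Tnfaip6 kept a 2-fold difference, and Il1r1, Socs3, Nfkbia and Nfkbiz did not.

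Genes of prostaglandin handling had members on both sides. Of 10 that passed, Ptgs2 and Slco2a1, the prostaglandin transporter, were higher and Hpgd and Abcc4 lower. Hpgd, which inactivates prostaglandins, stood at 230 CPM in WT_Ctrl, 55.2 in WT_UV and 50.5 in RP_UV, 4.56-fold (3.41 to 6.21) lower, but among fibroblasts under 10% it stood at 80.4 and 50.7 CPM. Slco2a1 (42.8 and 69.2) was also within 2-fold there, Abcc4 (3.42 and 14.8) was under the filter, and 0 genes of the list were lower. Ptges, the inducible synthase of prostaglandin E, stood at 37.7 and 54.1 CPM. Of 9 prostanoid receptors, only Ptgfr, the receptor of prostaglandin F, passed the filter, at 140, 0 and 67.0 CPM, and at 157 and 67.3 CPM among cells under 10%. Ptger2 and Ptger4, the receptors that raise cyclic AMP, stood at 0.803 and 8.03 CPM in WT_Ctrl and at 0.918 and 11.9 in RP_UV. Of 13 cAMP-responsive genes, Nr4a1, Nr4a2, Nr4a3 and Pde4d were higher and 0 lower, with a median of 0.61. Nr4a2 stood at 12.8, 0 and 105 CPM and Nr4a3 at 2.41, 36.8 and 56.9. These orphan nuclear receptors are immediate early genes as well, so they belong to more than 1 response. All 3 stayed higher among cells under 10%.

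Ligands and inhibitors directed at melanocytes were measured because the study followed melanocyte stem cells. Of 12 that passed, 5 were at least 2-fold lower in RP_UV (Dkk2, Dkk3, Sfrp4, Bmp4 and Tgfb2) and 0 higher, beside 2.17% lower over all genes, with a median of -0.27 that changed sign under 4 alternatives. Without cells of other types 4 were lower and 1 higher, with a median of 0.24. Dkk2, a Wnt inhibitor, stood at 221 CPM in WT_Ctrl, 0 in WT_UV and 63.3 in RP_UV, and Sfrp4, another, at 247, 0 and 70.7. Tgfb2 stood at 158, 18.4 and 68.8 CPM. The lower members were thus inhibitors and TGF-beta family ligands, and all but Tgfb2 (83.8 and 69.2 CPM) were also lower among cells under 10%. Kitl, the ligand of the Kit receptor, stood at 36.9 and 83.5 CPM, just within 2-fold on the log scale used, and at a log2 ratio of 0.56 without cells of other types, against 449 and 415 CPM in endothelial cells. Hgf stood at 5.62 and 31.2 CPM, under the filter, and among cells under 10%, where it passed, at 10.3 and 31.4 (log2 ratio 1.03). Edn3, Wnt11 and Wnt2 stood at 14.7 CPM or less.

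Of 25 growth factors and binding proteins, 6 were at least 2-fold higher (Igfbp4, Pdgfa, Inhba, Fst, Grem1 and Ccn1) and Igfbp2 and Igfbp3 lower. Grem1, a BMP antagonist, stood at 46.6, 0 and 211 CPM, 4.53-fold (3.39 to 6.16) higher, whereas the ligand Bmp4 was lower. Ccn1, a matricellular protein, stood at 106, 221 and 327 CPM. Inhba, the activin subunit, stood at 28.9 and 78.9 CPM beside the higher follistatin. Pdgfa lost its difference without cells of other types, at a log2 ratio of -0.06.

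Contractile genes of myofibroblasts were higher in 7 of 10 genes, beside 5.03% over all genes. Their median was 1.41, and these values moved with the pericyte markers. Acta2, smooth muscle actin, stood at 171 CPM in WT_Ctrl, 6334 in WT_UV and 962 in RP_UV, but in only 9 and 28 fibroblasts of WT_Ctrl and RP_UV, of which 18 of the 28 also had Rgs5 of pericytes. Acta2 was among the genes used to remove cells of other types, so its own fall, and part of that of the list, was fixed by the removal. Without those cells, 3 of 9 genes were higher and the median was 0.94. Tagln, transgelin, then stood at 2.58 CPM in WT_Ctrl and 112 in RP_UV. In WT_UV all 344 Acta2 UMIs were in 1 cell.

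Genes that mark kinds of fibroblast differed from list to list, beside 5.03% higher and 2.17% lower over all genes. Of 11 adventitial genes, 0 were 2-fold apart over all fibroblasts. Ly6a stood at 1718 and 1649 CPM in WT_Ctrl and RP_UV, Pi16 at 478 and 368 and Dpp4 at 144 and 126. Among cells under 10%, Pi16 was 2-fold lower in RP_UV, at 791 and 367 CPM. Of 9 papillary-type genes, Crabp1, a binding protein of retinoic acid, was higher and Apcdd1, Axin2 and Trps1 lower, with a median of -0.39. Apcdd1, a Wnt inhibitor, stood at 293, 0 and 81.7 CPM, 3.59-fold (2.84 to 4.57) lower, and the 3 lower genes stayed so under 10%. Crabp1 stood at 212 and 631 CPM with 177 of its UMIs in 1 cell, and its sign turned without the upper limit on genes per cell. Of 11 reticular-type genes, Cxcl12 was higher and Col15a1 lower. Of 6 follicle sheath and papilla-type genes, Tnmd and Bmp4 were lower and 0 higher. Their median was -0.27 and changed sign under 1 alternative. Among cells under 10%, 3 of 7 were lower, beside 3.06% over all genes.

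The transcription factors of dermal fibroblasts were level in most cases. Twist1 stood at 452, 166 and 474 CPM and Prrx1 at 524, 387 and 579, with intervals of the ratio that include 1. Of 22, Runx1 and Klf2 were higher and Tcf4 and Osr2 lower, and without cells of other types 1 was higher and 0 lower. Of 24 surface proteins, Pdpn and Cd44 were higher and Entpd2 and Ackr4 lower. Pdpn, podoplanin, stood at 78.7, 18.4 and 236 CPM, 3.00-fold (2.37 to 3.82) higher. Cd44, the hyaluronan receptor, stood at 32.9, 0 and 123.

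MHC class I genes were within 2-fold in most cases. Of 13, B2m and H2-K1 were at least 2-fold lower and 0 higher, beside 2.17% lower over all genes, with a median of -0.64 that ran from -0.84 to -0.45 over the alternatives. B2m, the light chain of the class I molecule, stood at 1531, 626 and 731 CPM. The other cells of these libraries stood at 1993 and 1595 CPM of B2m. No member was 2-fold lower among fibroblasts under 10%, where the median was -0.51.

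The remaining lists had 0 to 4 members apart by 2-fold. Interferon-stimulated genes had 2 higher (Ifitm1 and Ifi27l2a) and Xaf1 lower of 17, p53 targets 2 higher (Cdkn1a and Bax) of 9, complement genes 2 higher (Masp1 and C1qa, the latter a macrophage gene) of 10, glycolytic genes 2 higher (Gapdh and Ldha) of 15, and circadian clock and NRF2 target genes 0 of 9 each. Of 4 cell cycle genes, Stmn1 and Tubb5 were higher, and Mki67 was seen after thinning in 0.552% of RP_UV fibroblasts and in 0 of 192 in WT_Ctrl, under the 3.29% of immune cells in RP_UV. Of 9 adipogenic genes, Cebpd, Fabp4, Cd36 and Fabp5 were higher. Fabp4 had 1443 CPM in RP_UV fibroblasts and 1796 in the other cells, and 156 CPM in fibroblasts once cells of other types were removed.

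**Figure D5:**
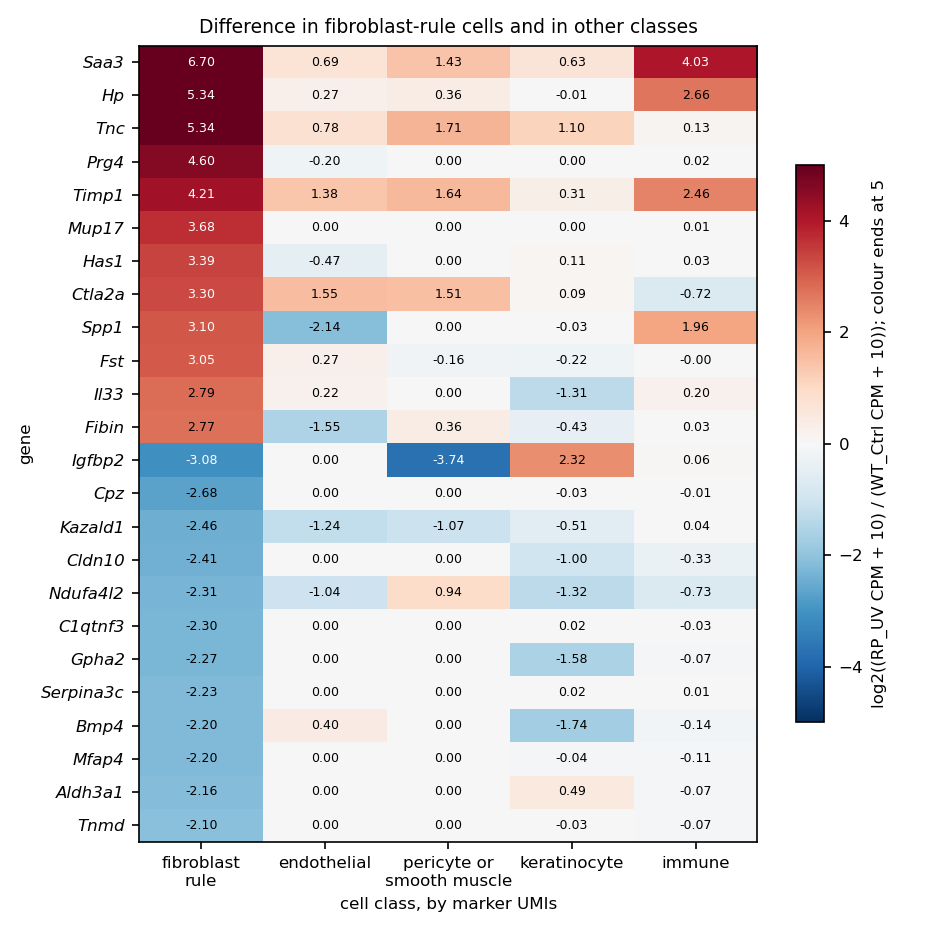
Log2((RP_UV CPM + 10)/(WT_Ctrl CPM + 10)) of the 24 named genes in fibroblasts and in endothelial, pericyte or smooth muscle, keratinocyte and immune cells taken by marker UMIs, with red for higher and blue for lower in RP_UV. Saa3, Hp, Timp1 and Spp1 are also raised in immune cells, and Igfbp2 is lower in pericytes but higher in keratinocytes. Timp1 and Ctla2a are also raised in endothelial and in pericyte or smooth muscle cells.

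The 24 named genes were set beside the same contrast in 241 endothelial, 123 pericyte or smooth muscle, 885 keratinocyte and 3340 immune cells of RP_UV and their WT_Ctrl counterparts (78, 35, 822 and 3057 cells). Prg4, Has1 and Fibin stood at 2.05, 1.41 and 2.84 CPM or less in those classes of RP_UV, against 369, 153 and 272 in fibroblasts. Saa3 and Timp1 were also higher in immune cells, at log2 ratios of 4.03 and 2.46 against 6.70 and 4.21 in fibroblasts. Timp1 was higher as well in endothelial cells, at 11.6 CPM in WT_Ctrl (3 UMIs) and 46.1 in RP_UV. In pericyte or smooth muscle cells it stood at 16.9 (2 UMIs) and 73.7 CPM. Tnc had log2 ratios of 1.71 in pericytes and 1.10 in keratinocytes, from levels of 22.7 and 13.0 CPM in RP_UV. The pericyte value rested on 0 UMIs in WT_Ctrl and 8 in RP_UV. Without the pseudocount, Tnc of keratinocytes was 17.9-fold (6.75 to 67.0) higher, from 4 and 92 UMIs. Igfbp2 was lower in pericytes too, at a log2 ratio of -3.74, and higher in keratinocytes, at 2.32. Fibroblasts held 74.7% of all Tnc UMIs of the kept RP_UV cells, 85.3% of Fibin, 79.9% of Has1 and 70.4% of Prg4 while being 3.34% of the cells. Mup17, from 1 fibroblast, stood at 80.1%. Other raised genes had lower shares: Fst 41.6%, Timp1 39.2%, Il33 31.7%, Saa3 27.9%, Ctla2a 26.3%, Hp 8.85% and Spp1 7.66%. Genes higher in the other cells of RP_UV had been left out of the pick. Some enrichment in fibroblasts was thus fixed by the pick and supports nothing further.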

How the data were processed

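Single-cell RNA libraries of the 10x Genomics platform were analysed from 3 skins, 1 per group. Raw UMI counts per gene and cell were deposited by the authors as made with Cell Ranger 6.1.1, the genome build being mm10 per the submitters' processing notes, with no normalization and no pooling. Cells were kept as in the methods of the study (mitochondrial share under 10%, over 200 genes, under 4000 genes or 6000 in WT_UV). No doublet caller was run, and removal of the 5% deepest members was an alternative. The members and gene lists were chosen with earlier results of these data known. UMIs were summed over members (Python 3.11.15, scipy 1.17.1), scaled to CPM, filtered at a mean of 20 CPM over WT_Ctrl and RP_UV, and compared with a pseudocount of 10 CPM and a 2-fold limit. Levels have exact Poisson and ratios exact conditional binomial 95% intervals, and shares Wilson intervals. For shares each cell was thinned to 2000 UMIs. The code was tested on simulated data. Named genes were the list genes and the 12 highest and 12 lowest ratios, leaving out rule, mitochondrial, ribosomal, Gm and Rik genes and genes higher in the other cells of that library. Cell classes beside fibroblasts were taken by marker UMIs, and promoters came from RefSeq (GRCm38.p6). Alternatives covered scaling, filter, pseudocount and rule limits. Results for some single genes are not reported here.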

Additional observations from a re-analysis of the deposited data

Results flagged for a closer look

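Il33 and Igfbp2 differed in direction between cell classes in RP_UV against WT_Ctrl, a difference that was not tested. Il33 had a log2 ratio of 2.79 in fibroblasts and -1.31 in keratinocytes (80.6 CPM in WT_Ctrl and 26.6 in RP_UV). Igfbp2 had a log2 ratio of -3.08 in fibroblasts and 2.32 in keratinocytes (11.6 and 97.9 CPM). With fewer UMIs, Spp1 and Fibin also differed in direction from fibroblasts in endothelial cells, at log2 ratios of -2.14 (10 UMIs in WT_Ctrl and 1 in RP_UV) and -1.55 (5 and 0 UMIs), against 3.10 and 2.77 in fibroblasts.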

How the results depend on the processing

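The 297 higher genes became 452 with a pseudocount of 1 CPM, 107 with a filter at 100 CPM, 182 with median-of-ratios scaling and 175 without members at 10% or more of collagen and decorin UMIs. The 128 lower genes became 50, 216 and 202 with the filter at 100 CPM, median-of-ratios scaling and thinning to 2000 UMIs. The share of members in WT_Ctrl was 3.32% with no Ptprc, Tyrobp or keratin UMI allowed. In RP_UV it was 1.93% by that limit, 2.60% with 5 rule genes and 20 UMIs, 2.52% with no pericyte, endothelial or Schwann UMI and 2.73% without cells with markers of other types, and in WT_UV 0.0191% by either of the middle limits. Cpz turned to a log2 ratio of 0.11 without members at 10% or more, and Crabp1 to -0.17 with no upper limit on genes per cell, and the cause was not tested beyond the split itself. Of the 24 named genes, 20 kept a 2-fold difference under every alternative in which they could be read, and Cpz, Cldn10, Ndufa4l2 and C1qtnf3 lost it without members at 10% or more. Mup17 has no value without its 1 cell, and Gpha2 and Serpina3c have none among cells under 10%. No paired analysis was possible because each group had 1 library and its number marked no pairing. With 5 fibroblasts in WT_UV, a gene at 0 there could stand at up to 55.2 CPM.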
